A study of Mus musculus with 6 samples.

Results

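The nicotinic acetylcholine receptor subunits examined were Chrna3, Chrna4, Chrna5, Chrna7, Chrnb1, Chrnb2, Chrnb3 and Chrnb4, chosen by gene symbol from the Ensembl identifiers in the expression files. All 8 of 8 had a row among the 21006 genes measured. RNA was taken from the prefrontal cortex of wild type male C57BL/6 mice aged 18 months by the age label, although the sample titles carry the tag 17M. PND mice, which model the neurocognitive disorder that can follow surgery, had received 1.5% isoflurane anesthesia and an exploratory laparotomy of 30 min, and CON mice had received neither. Each group held 3 samples, each from a different animal. Isoflurane and surgery were always given together, so their contributions cannot be told apart. Lidocaine cream and povidone iodine were put on the wound of PND mice only, and every mouse was put through behavioral tests and a terminal isoflurane anesthesia before the brain was taken.

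Nicotinic receptors are cation channels opened by acetylcholine and built from a ring of subunits. In the brain, the subunits encoded by Chrna4 and Chrnb2 form the main high-affinity receptor, and the subunit encoded by Chrna7 forms a channel largely by itself. The subunits encoded by Chrna5 and Chrnb3 are accessory: they join a ring whose binding sites are made by others. Chrna3 and Chrnb4 encode the receptor of autonomic ganglia and of the medial habenula, and Chrnb1 encodes the beta subunit of the skeletal muscle endplate. In the prefrontal cortex, nicotinic receptors are known for their part in attention.

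All subunits of the family carry a loop closed by a bond between a pair of cysteines, which gave the Cys-loop receptors their name. The coding stretch of that loop is shown because it lets the 8 subunits be seen side by side at the same place. Capitals mark the codons of its first and last cysteine, and each stretch is 45 bases, read 5′ to 3′ from GENCODE M21 transcripts on GRCm38.
Chrna4, chr2:181029431-181029475, minus strand: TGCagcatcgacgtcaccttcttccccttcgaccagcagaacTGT
Chrnb2, chr3:89761500-89761544, minus strand: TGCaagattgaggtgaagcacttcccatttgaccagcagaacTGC
Chrna7, chr7:63107658-63107702, minus strand: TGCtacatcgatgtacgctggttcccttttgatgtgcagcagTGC
Chrna5, chr9:55004425-55004469, plus strand: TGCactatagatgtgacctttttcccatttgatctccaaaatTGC
Chrnb3, chr8:27393711-27393755, plus strand: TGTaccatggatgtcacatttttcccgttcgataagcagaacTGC
Chrna3, chr9:55016007-55016051, minus strand: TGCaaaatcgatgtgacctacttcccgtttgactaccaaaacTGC
Chrnb4, chr9:55035491-55035535, minus strand: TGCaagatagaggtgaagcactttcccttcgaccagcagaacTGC
Chrnb1, chr11:69793580-69793895, minus strand, across the junction of 2 exons: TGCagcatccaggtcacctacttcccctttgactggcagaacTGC
Chrnb2 and Chrnb4 were the closest pair over these bases, at 41 of 45 identical (91.1%). Chrna7 and Chrnb4 were the farthest apart, at 26 of 45 (57.8%). Chrnb1 was 84.4% identical to Chrna4 and 80.0% identical to Chrna3.

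Alpha subunits are told from beta subunits by a pair of adjacent cysteines that lies further along the chain, at the acetylcholine site. Between 16 and 89 residues after the first cysteine of the loop, each of the 4 alpha subunits had 1 such pair, and none was found in the 4 beta subunits. The stretches of 30 bases around it are shown because they separate the classes, with the paired cysteine codons in capitals.
Chrna4, chr2:181029266-181029295, minus strand: aggaagtatgaaTGCTGTgccgagatctat
Chrna7, chr7:63106146-63106175, minus strand: aagttctatgaaTGCTGCaaagagccatac
Chrna3, chr9:55015842-55015871, minus strand: atcaagtacaacTGCTGTgaggagatctac
Chrna5, chr9:55004605-55004634, plus strand: cggacggacagcTGCTGCtggtacccctgc
A tyrosine codon (TAT or TAC) stands 2 codons before the pair in Chrna3, Chrna4 and Chrna7, and Chrna5 has a GAC codon there.

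Chrna5, Chrna3 and Chrnb4 are neighbors on chromosome 9, with 2331 bases between Chrna5 and Chrna3 and 1591 bases between Chrna3 and Chrnb4. Chrna5 lies on the plus strand and the other two on the minus strand. Chrna5 stood above both of its neighbors in every sample, while Chrna3 and Chrnb4 overlapped near the limit of detection. Chrna5 averaged 1.47 ± 0.671 FPKM over the 6 samples (SD), Chrna3 averaged 0.168 ± 0.0826 FPKM and Chrnb4 averaged 0.0270 ± 0.0493 FPKM. FPKM divides the fragments of a gene by its exon length and by the depth of the library.

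The files gave FPKM and no counts, but nearly all low values were whole multiples of what 1 fragment is worth, which gave back whole fragments for all 8 subunits. The smallest whole numbers that met the values are given here. Effective depth was 7906889 to 9387856 fragments in the PND samples and 7193544 to 8149355 in the CON samples. Genes that mark cortical glutamatergic neurons (Slc17a7, Tbr1, Neurod6 and Camk2a) were present in every sample, with Slc17a7, the vesicular glutamate transporter of cortex, at 23.6 to 73.8 FPKM. In bulk tissue, fewer cells of a type and less RNA per cell cannot be told apart.

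Compared with the CON group, Chrnb1 was the only one of the subunits that passed the study's cut-off in the PND group, and it was higher. The cut-off was an absolute log2 fold change above 1 with an unadjusted p below 0.05, and 1.33% of the 18185 genes tested passed it (0.841% higher and 0.484% lower in PND). Of the 8 subunits, 7 had a mean of at least 0.1 FPKM and were tested, and 1 of these 7 passed. The study itself had picked Chrnb1 out of these samples, so the call is not independent evidence. The paper also reported Chrnb1 as significantly higher in PND by qRT-PCR, on cortex kept from mice not sequenced. That result cannot be checked with these samples. After Benjamini-Hochberg adjustment over all genes, 0 of the subunits stayed below 0.05 by limma, as against 0.011% of all genes (2 genes). Before adjustment, 1 subunit was below 0.05, as against 3.13% of all genes. The adjusted p of each of the 7 was 0.9999 by limma. Exact two-sided permutation tests over the samples gave p = 0.1 for Chrnb1, 0.2 for Chrnb2, 0.4 for Chrna7, 0.5 for Chrnb3, 0.7 for Chrna5, 0.8 for Chrna4 and 1 for Chrna3, and 3 samples against 3 cannot go below 0.1. Among the 7 tested, 5 log2 fold changes were positive and 2 were negative, with a median of 0.30, beside a median of 0.01 and a positive share of 52.4% over all genes tested.

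Chrnb1 (ENSMUSG00000041189, chr11:69784036-69795943, minus strand, GRCm38) was at 0.265, 0.297 and 0.219 FPKM in PND samples 1 to 3. It was at 0, 0.0360 and 0 FPKM in CON samples 1 to 3. Every PND sample lay above every CON sample, and Chrnb1 was the only tested subunit whose groups did not overlap. Groups did not overlap for 7.66% of all genes tested, with PND above for 3.78% and below for 3.88%. Among the 5798 tested genes with a mean below 1 FPKM, PND lay above for 5.29%, and 3.1% passed the cut-off. The Chrnb1 values stand for 8, 8 and 7 fragments in PND and for 0, 1 and 0 fragments in CON. They imply an exon length of 3409 bases, while all annotated Chrnb1 exons merged come to 2531 bases. Where these fragments lay was not tested. A count of 0 allows up to 3 fragments, or 0.117 FPKM in CON sample 1 and 0.122 FPKM in CON sample 3. All 3 PND samples were above the level that 3 fragments would give in their own library, which was at most 0.111 FPKM. Set against depth, the ratio of the summed fragments (23 in PND, 1 in CON) was 20.1, with an exact 95% counting interval of 3.26 to 828 that covers counting error only.

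**Figure D1:**
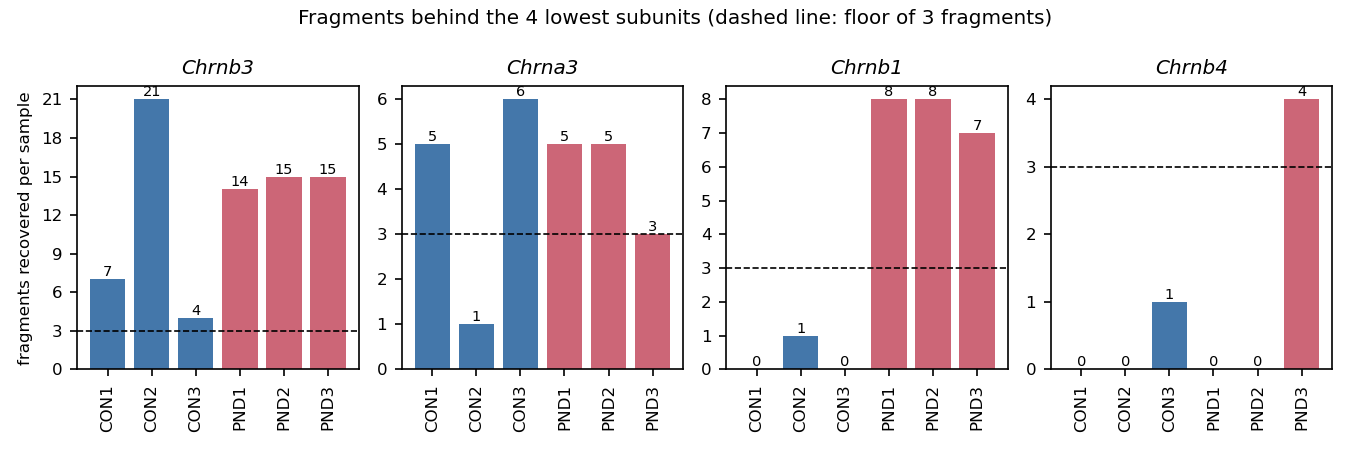
Fragments recovered for Chrnb3, Chrna3, Chrnb1 and Chrnb4 in each sample (y axis, number of fragments; x axis, sample; blue bars are CON and red bars PND; the dashed line is the floor of 3 fragments). Chrnb1 has 7 or 8 fragments in each PND sample and 0 or 1 in each CON sample, while the bars of the other subunits overlap between groups.

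The mean of Chrnb1 over the 3 PND samples was 0.260 ± 0.0393 FPKM, and over the 3 CON samples it was 0.0120 ± 0.0208 FPKM (SD). On the log2(FPKM + 0.1) scale, where changes of low genes come out smaller than they are, the difference was 1.70 (SE 0.41, 95% interval 0.75 to 2.64; limma, adjusted p = 0.9999). A pseudocount of 1 in place of 0.1 brought it down to 0.32, which is under the cut-off for size, and a pseudocount of 0.01 raised it to 4.01. The gene passed the filter on low values only through the PND samples.

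Because Chrnb1 belongs to the muscle receptor, skeletal muscle genes were read in the same samples. Of 6 muscle markers, 5 were analysed here, and their summed level ran from 0.685 to 1.20 FPKM in PND and from 0.182 to 0.748 FPKM in CON. Acta1, skeletal muscle actin, was at 0.789, 0.353 and 0.669 FPKM in PND and at 0, 0.599 and 0.291 FPKM in CON (log2 fold change 1.17). Myl1, a fast muscle myosin light chain, was higher in every PND sample than in any CON sample (log2 fold change 0.87). Neither passed the cut-off, since the unadjusted p of each was above 0.05. The other 3 markers, Myh4, Tnnt3 and Tnni2, reached at most 0.108 FPKM in any sample. Myh4 had a lower mean in PND (0.0570 FPKM) than in CON (0.0691 FPKM). Tnnt3 and Tnni2 were at 0 in every CON sample and had at most 1 fragment in any PND sample. The part of muscle RNA in the Chrnb1 result was not tested.

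Chrna1, the alpha subunit that pairs with Chrnb1 in muscle, had 3, 0 and 0 fragments in PND and 0, 0 and 1 in CON, and was below the filter. Of 6 endplate clustering genes, 5 were analysed here, 4 were tested and 0 passed the cut-off, with a median log2 fold change of -0.01 and 2 values on each side of 0. Musk, the endplate receptor kinase, had the highest value at 0.33 (SE 0.44), and Lrp4, its partner as agrin receptor, the lowest at -0.21 (SE 0.23). Musk was read from 10 to 14 fragments in PND samples and from 3 to 13 in CON samples, so its groups overlapped.

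The subunits of the main cortical receptors did not pass the cut-off. Chrnb2 (ENSMUSG00000027950, chr3:89746195-89764632, minus strand) was at 4.72, 3.65 and 4.74 FPKM in PND and at 2.99, 4.44 and 3.05 FPKM in CON. The groups overlapped through CON sample 2 and PND sample 2. After a correction for GC content, log2 values ran from 2.05 to 2.18 in PND and from 1.68 to 1.96 in CON, without overlap. The difference was then 0.27 and still short of the cut-off. The share of all genes without overlap after this correction was not counted, and before it the share was 7.66%. Without the correction, the Chrnb2 difference was 0.33 on the log2 scale (SE 0.21, 95% interval -0.16 to 0.82). The summed fragments, 1012 in PND and 708 in CON, gave a depth-adjusted ratio of 1.25 (1.13 to 1.38, counting error only). The interval over animals thus included no difference, while the interval from counting error alone did not. Exons of Chrnb2 share 1365 bases with exons of Adar, an RNA-editing enzyme gene on the opposite strand, and whether counting used strand was not given in the sources used here. Adar was at 7.21 to 13.9 FPKM in PND and at 7.89 to 14.7 FPKM in CON, and its part in the Chrnb2 values was not tested.

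Chrna7 (ENSMUSG00000030525, chr7:63098692-63212569, minus strand) was at 5.95, 5.38 and 5.50 FPKM in PND and at 4.98, 7.75 and 6.98 FPKM in CON. The PND samples lay close together and inside the range of the CON samples. The log2 difference was -0.20 (SE 0.19, 95% interval -0.64 to 0.24), from 307 fragments in PND and 315 in CON.

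Chrna4 (ENSMUSG00000027577, chr2:181018380-181043546, minus strand) varied most of the subunits above 1 FPKM, and it varied within the groups. It was at 3.91, 0.524 and 1.04 FPKM in PND and at 0.243, 4.96 and 0.783 FPKM in CON. PND sample 1 and CON sample 2 were high and the other 4 samples were low, so the groups overlapped over most of their range. The fragments were 209, 25 and 59 in PND and 11, 244 and 34 in CON, and the highest sample was 20.4 times the lowest. The log2 difference between groups was 0.30 with a wide error (SE 1.04, 95% interval -2.14 to 2.74), and with 1 sample left out it ran from -0.58 (without CON sample 1) and -0.45 (without PND sample 1) to 0.89 (without PND sample 2) and 1.37 (without CON sample 2).

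On the log2(FPKM + 0.1) scale the range of Chrna4 was 14.7-fold. Of the 5097 genes within 2-fold of its level, 56 had a wider range, and the median range was 1.85-fold. By the same reading, Chrna5 had a range of 2.52-fold, with 991 of 4042 genes of like level wider. The ranges of Chrnb2 (1.57-fold) and Chrna7 (1.55-fold) were near the medians of their neighbors in level, 1.61-fold and 1.52-fold. Exons of Chrna4 hold 55.7% G and C. The most GC-rich decile of genes (at least 56.6% G and C) deviated from their means by a median of 0.11, -0.30 and 0.37 on the log2 scale in PND samples 1 to 3, and of -0.56, 0.49 and -0.03 in CON samples 1 to 3. A correction for GC content left Chrna4 a range of 8.96-fold, and the cause of this range was not tested.

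A stretch of coding sequence that Chrna4 has in common with another gene is shown because fragments that lie wholly within it cannot be assigned to 1 gene. It was the longest for Chrna4, 47 bases identical in Chrna2, in 1 exon at chr2:181028997-181029043 on the minus strand.
Chrna4 and Chrna2: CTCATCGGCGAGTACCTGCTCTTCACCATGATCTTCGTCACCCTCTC
Chrna3 and Chrnb4 have 33 bases in common, at chr9:55015710-55015742 in Chrna3 and chr9:55035203-55035235 in Chrnb4.
Chrna3 and Chrnb4: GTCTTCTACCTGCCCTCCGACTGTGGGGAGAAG
No run of 31 bases or more was found between the coding sequence of Chrna5, Chrna7, Chrnb1 or Chrnb3 and any transcript of another gene. Chrna2, a subunit of a small class of cortical interneurons, was at 0.126 to 0.479 FPKM in PND and at 0.0307 to 0.347 FPKM in CON, and was lowest in CON sample 2, where Chrna4 was highest.

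**Figure D2:**
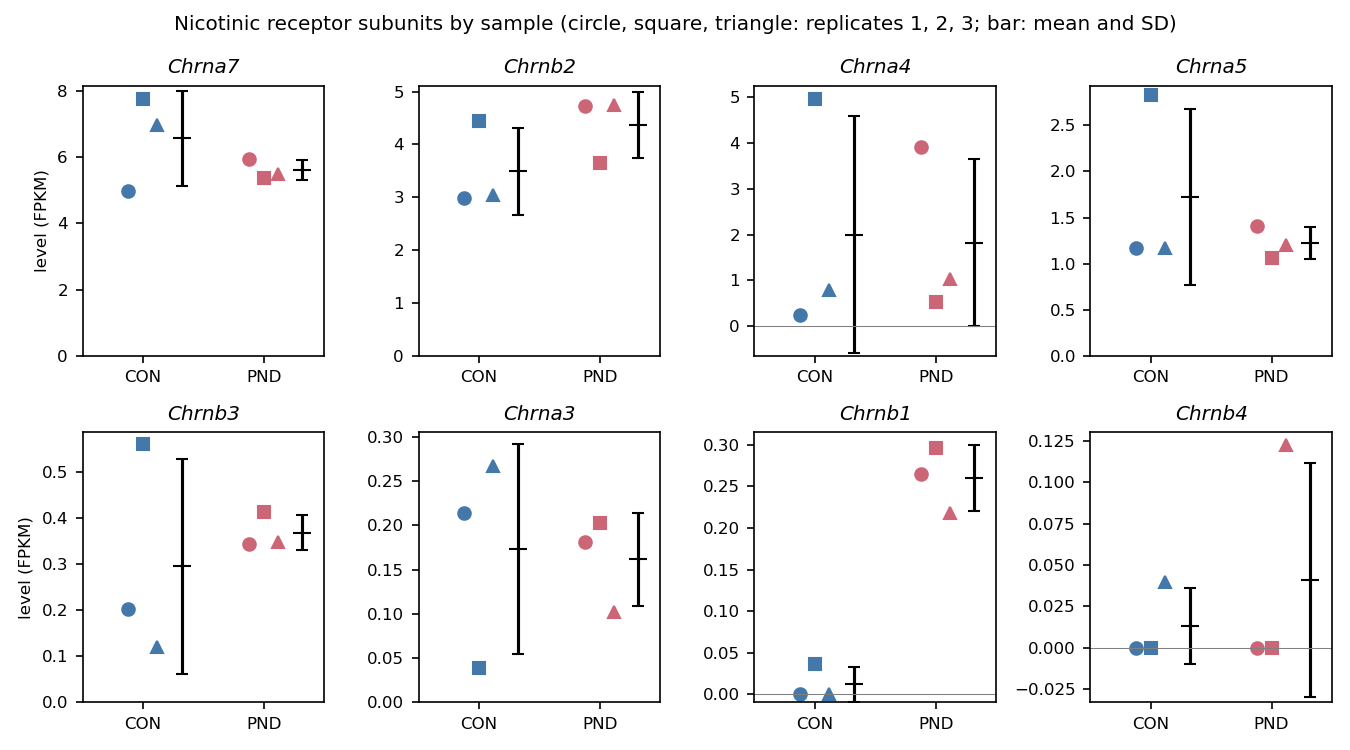
Level of each subunit (y axis, FPKM, with a separate scale in each panel) in the CON and PND samples (x axis). Symbols are samples and the black bar is the mean with its SD; Chrnb1 is the only panel where the groups stand apart, and Chrna4 shows 1 high sample of each group at 3.91 and 4.96 FPKM.

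The accessory subunits did not pass the cut-off. Chrna5 (ENSMUSG00000035594, chr9:54980880-55007779, plus strand) was at 1.40, 1.06 and 1.21 FPKM in PND and at 1.17, 2.82 and 1.17 FPKM in CON. CON sample 2 stood above the other 5 samples, which lay between 1.06 and 1.40 FPKM. The log2 difference was -0.35 (SE 0.36, 95% interval -1.19 to 0.50) and turned to 0.05 without CON sample 2. Chrnb3 (ENSMUSG00000031492, chr8:27368711-27399730, plus strand) was at 0.345, 0.413 and 0.348 FPKM in PND and at 0.204, 0.562 and 0.121 FPKM in CON. Its PND samples lay within the CON range, at 14, 15 and 15 fragments against 7, 21 and 4. The log2 difference was 0.40 (SE 0.46, 95% interval -0.68 to 1.48).

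The ganglionic and habenular subunits were near the limit of detection. Chrna3 (ENSMUSG00000032303, chr9:55010111-55026562, minus strand) was at 0.181, 0.202 and 0.102 FPKM in PND and at 0.214, 0.0393 and 0.267 FPKM in CON. These were 5, 5 and 3 fragments against 5, 1 and 6, so the groups overlapped. The log2 difference was 0.03 (SE 0.49, 95% interval -1.12 to 1.19). Chrnb4 (ENSMUSG00000035200, chr9:55028154-55048779, minus strand) had 4 fragments in PND sample 3, 1 in CON sample 3 and 0 in the other 4 samples, was below the filter and was not tested. A count of 0 allows it a level of up to 0.115 FPKM in CON sample 1. Of 5 medial habenula markers, 3 were tested and 0 passed the cut-off, and their summed level, most of it from Nwd2, was 6.87 to 7.79 FPKM in PND and 6.73 to 8.29 FPKM in CON. Gpr151, a receptor gene of the habenula, was at 0.277, 0.387 and 0.130 FPKM in PND and at 0.0817, 0.0752 and 0.0851 FPKM in CON, without overlap (log2 fold change 0.95, SE 0.43), from 4, 5 and 2 fragments against 1, 1 and 1. Among the other habenula markers, the log2 fold change was -0.02 for Nwd2 and -0.17 for Tac2, and Pou4f1 and Gng8, below the filter, had lower means in PND. The part of habenular RNA in the Chrna3 and Chrnb4 values was not tested.

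**Figure D3:**
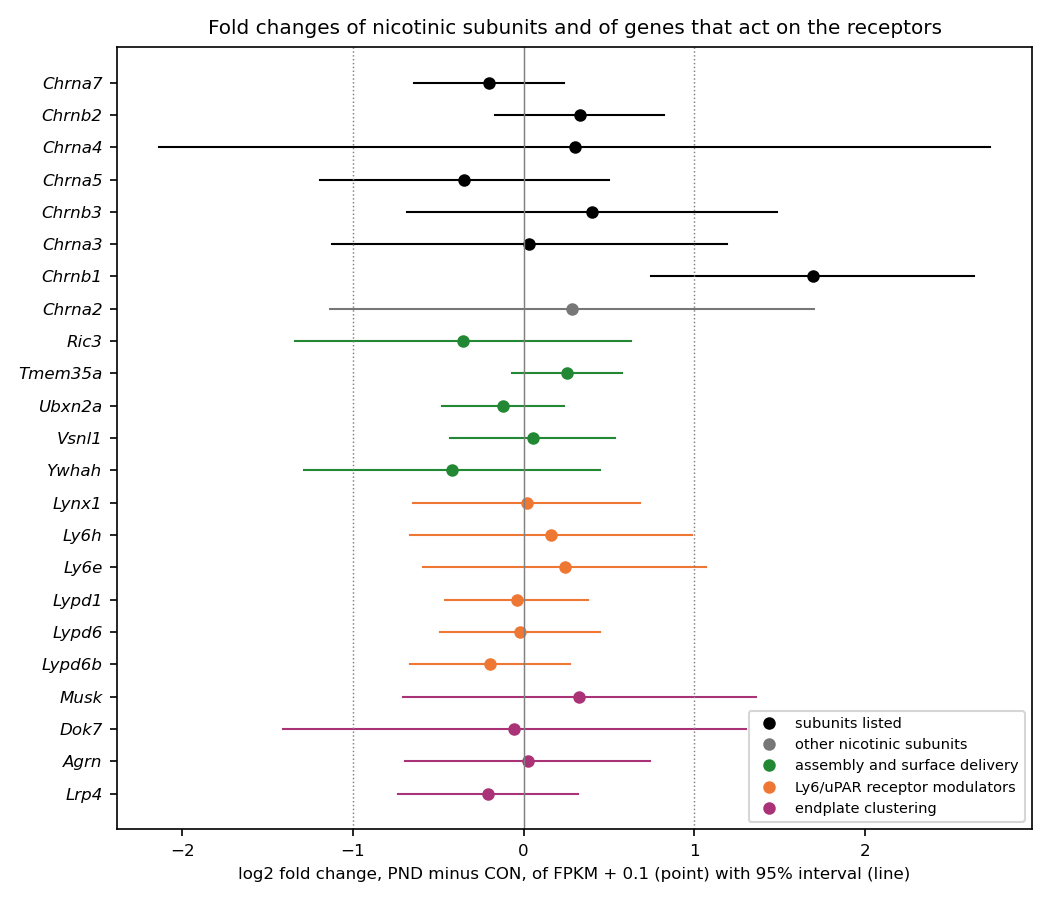
Log2 fold change of PND against CON on the log2(FPKM + 0.1) scale (x axis; points) with its 95% interval (lines) for the 7 subunits tested and for the tested genes of 4 lists that act on nicotinic receptors (colors). Chrnb1 at 1.70 is the only gene whose interval lies above 0; dotted lines mark the cut-off of 1 in either direction.

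By mean level over the 6 samples, Chrna7 came first at 6.09 ± 1.06 FPKM (SD), followed by Chrnb2 at 3.93 ± 0.808, Chrna4 at 1.91 ± 2.00 and Chrna5 at 1.47 ± 0.671 FPKM. Below 1 FPKM came Chrnb3 at 0.332 ± 0.155, Chrna3 at 0.168 ± 0.0826, Chrnb1 at 0.136 ± 0.139 and Chrnb4 at 0.0270 ± 0.0493 FPKM. Neighbors in this order were separated at only 2 places: Chrna7 was above Chrnb2, and Chrna5 above Chrnb3, in 6 of 6 samples and without overlap of their ranges. Chrnb2 was above Chrna4 in 5 of 6 samples, and Chrna4 above Chrna5 in only 2 of 6. The ranges of the others overlapped.

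The first place depended on the length by which fragments were divided. The files' values for Chrna7 gave an exon length of 2091 bases, while all its annotated exons merged come to 4505 bases. For Chrnb2 these lengths were 8792 and 8380 bases. Divided by merged exon length, Chrna7 would average 2.83 FPKM and Chrnb2 4.12 FPKM, which turns their order around. The 2091 bases rest on the smallest whole fragment numbers, and multiples of them would meet the values as well. With 2 times as many fragments the length would be 4182 bases and Chrna7 would average 5.65 FPKM by merged exon length, still above Chrnb2. Comparisons of 1 subunit between samples are not touched by this.

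The summed level of the 8 subunits averaged 13.9 ± 2.67 FPKM over the PND samples and 14.3 ± 5.64 FPKM over the CON samples (SD, n = 3 each). Chrna7 made up 35.5% to 46.7% of it in PND and 37.6% to 56.2% in CON. Chrnb2 made up 28.1% to 35.7% in PND and 21.5% to 30.5% in CON. Chrna4 took 23.3% in PND sample 1 and 24.1% in CON sample 2, and 2.48% to 7.84% in the other samples. Chrnb1 took at most 2.57% in any sample. These shares also move with the length: by merged exon length and the smallest fragment numbers, Chrna7 made up 19.2% to 28.7% in PND and 20.9% to 37.3% in CON, and Chrnb2 34.5% to 47.1% in PND and 27.1% to 44.6% in CON.

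**Figure D4:**
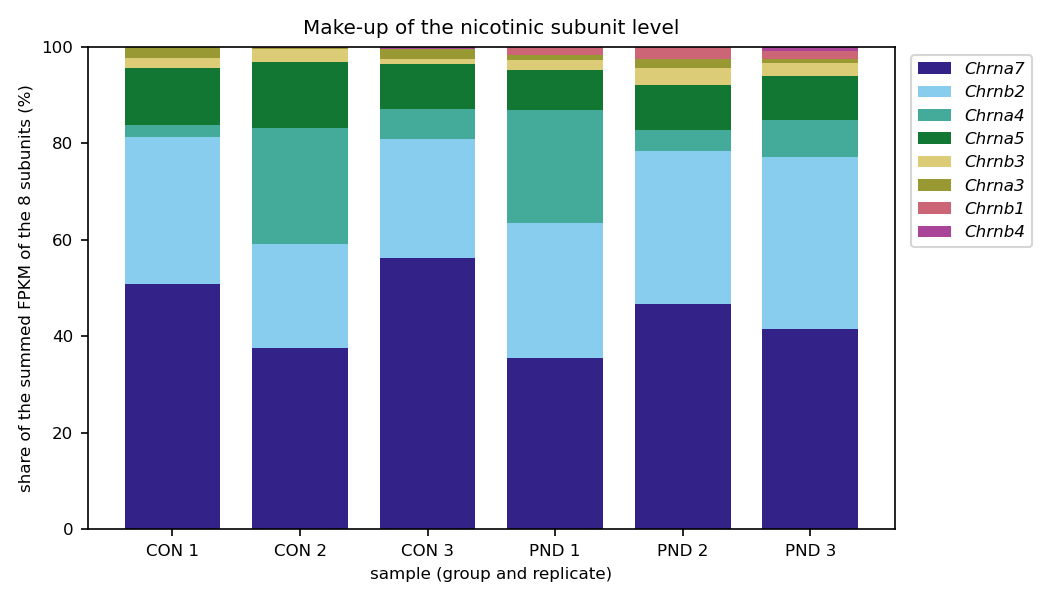
Share of each subunit (colors) in the summed FPKM of the 8 subunits (y axis, percent, with the lengths used in the files) in each sample (x axis). Chrna7 and Chrnb2 fill most of every bar, and the Chrna4 segment is wide in CON sample 2 (24.1%) and PND sample 1 (23.3%) and narrow in the others.

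Ratios between subunits within a sample do not depend on a scaling factor of the whole library, and the gene lengths set their size but not their order between samples. The ratio of Chrna7 to Chrnb2 was 1.26, 1.47 and 1.16 in PND and 1.66, 1.75 and 2.29 in CON, without overlap. The ratio of Chrna5 to Chrnb2 was 0.297, 0.291 and 0.255 in PND and 0.391, 0.636 and 0.383 in CON, also without overlap. The ratio to Chrnb2 was lower in every PND sample than in any CON sample for 13.7% of 12386 genes, so this arrangement was common, and both ratios rest on the same Chrnb2 values. After the correction for GC content the log2 ratio of Chrna7 to Chrnb2 was 0.37 to 0.44 in PND and 0.37, 1.06 and 1.14 in CON, with CON sample 1 below every PND sample, so that the separation was lost. The log2 ratio of Chrna5 to Chrnb2 was then -1.83 to -1.64 in PND and -1.57 to -0.41 in CON, still without overlap. How common this arrangement was among other genes after the correction was not counted. The ratio of Chrna4 to Chrnb2, the partners of the main receptor, ran from 0.143 to 0.829 in PND and from 0.0813 to 1.12 in CON. The ratios of Chrnb3 to Chrnb2 and of Chrna5 to Chrna7 overlapped between groups as well.

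**Figure D5:**
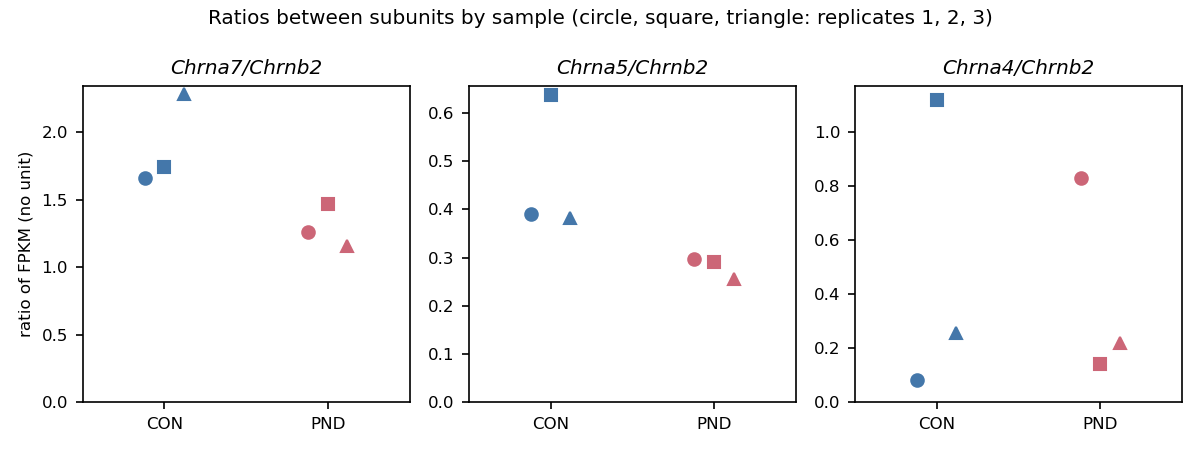
Ratio of Chrna7, Chrna5 and Chrna4 to Chrnb2 (y axis, ratio of FPKM values) in each CON and PND sample (x axis; symbols are samples). For Chrna7 and Chrna5 the highest PND samples, 1.47 and 0.297, lie below the lowest CON samples, 1.66 and 0.383, and for Chrna4 the groups overlap.

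The genes that act on nicotinic receptors gave no call. Of 8 other subunits, 5 were analysed here and only Chrna2 was tested (log2 fold change 0.28, SE 0.61). Chrna6, a neighbor of Chrnb3 on chromosome 8 and a subunit of dopamine neurons, had 0, 0 and 1 fragments in PND and 0, 2 and 5 in CON. All 5 genes listed for assembly and surface delivery were tested and 0 passed, with a median log2 fold change of -0.12. Tmem35a, the chaperone NACHO needed by the Chrna7 channel, had the highest value among them at 0.25 (SE 0.14, 95% interval -0.07 to 0.58). It was at 20.5, 17.7 and 16.9 FPKM in PND and at 16.97, 13.4 and 15.9 FPKM in CON, so the groups overlapped. Ywhah, a 14-3-3 protein, had the lowest at -0.42 (SE 0.37), with PND sample 2 at 32.9 FPKM and the other 5 samples at 69.6 to 98.3 FPKM.

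Of 9 receptor modulators of the Ly6/uPAR family, small proteins related to snake toxins that bind nicotinic receptors, 7 were analysed here, 6 were tested and 0 passed the cut-off. Their log2 fold changes lay between 0.24 for Ly6e (SE 0.35) and -0.20 for Lypd6b (SE 0.20), with a median of -0.001. Over the 4 lists, no tested gene was higher or lower in every PND sample than in any CON sample.

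Of 3 markers of the cells that release acetylcholine, 2 were tested, and both had a positive log2 fold change without passing the cut-off. Chat, the enzyme that makes acetylcholine, was at 0.724, 0.810 and 0.644 FPKM in PND and at 0.427, 0.262 and 0.693 FPKM in CON (log2 fold change 0.63). Slc5a7, the choline transporter, was at 4.15, 5.45 and 4.65 FPKM in PND and at 3.33, 1.09 and 5.56 FPKM in CON (log2 fold change 0.76). Markers of septum and basal forebrain, where such cells lie, had a summed level of 4.76 to 6.62 FPKM in PND and 2.42 to 7.56 FPKM in CON. Of 6, 5 were analysed here and 4 were tested, and all 4 log2 fold changes were positive (median 0.65) with 0 past the cut-off. Lhx8 (1.05, SE 0.55) was higher in every PND sample than in any CON sample, and Gbx1 (1.04, SE 0.57) overlapped between groups. CON sample 2 was the lowest for Chat and Slc5a7 and the highest for Chrna4, Chrna5, Chrna7 and Chrnb3. The summed level of 6 striatal markers was also lowest in CON sample 2, at 88.6 FPKM, beside 134.9 to 226.7 FPKM in the other samples, and the part of the tissue taken in these subunit values was not tested.

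The genes with the pattern most like that of Chrnb1, by the root mean square difference of centered log2 values over the 6 samples among 12323 genes of at least 1 FPKM, were Ino80d (0.21) and Klhl40 (0.24). Ino80d, a subunit of a chromatin remodeling complex, was at 6.23 to 6.59 FPKM in PND and at 1.77 to 2.02 FPKM in CON. Klhl40, a kelch gene known from skeletal muscle, was at 1.60 to 2.16 FPKM in PND and at 0.380 to 0.850 FPKM in CON. The split between groups in Ino80d and Klhl40 follows from how they were picked, and the study had also named Ino80d from these samples. For Chrnb2 they were B4galnt4 (0.02) and Bdh1 (0.05), for Chrna7 Apoo-ps (0.05) and Ndrg1 (0.05), and for Chrna5 Gm15941 (0.13) and Vegfb (0.14). For Chrna4 the nearest were Gm20634 (0.59) and Hist1h4n (0.60), and both were highest in CON sample 2.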

How the data were processed

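RNA was sequenced from 6 prefrontal cortex samples, 3 PND and 3 CON, grouped by the treatment in the labels. Per the methods, the authors depleted ribosomal RNA, aligned with HISAT2, counted fragments with StringTie and deposited FPKM values after TMM scaling; the submitters' processing notes list Bowtie 0.12.2, mm8 and mm9 without a role. Annotation and strand setting were not given in the sources used here. The members and lists were chosen with earlier results of these data known.

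The 18185 of 21006 genes that averaged 0.1 FPKM or more were fitted on log2(FPKM + 0.1) with limma 3.58.1 in R 4.3.3 (moderated test with an intensity trend, two-sided, Benjamini-Hochberg over all genes). Code was tested on simulated data. An exact permutation test over samples was run for each subunit tested. Alternatives were other pseudocounts, filters and scalings, no trend, a replicate block, a GC correction, voom on fragments, and each sample left out in turn; the GC correction of ratios was added after seeing the data. P-values measure the spread between animals. Whole fragments were recovered from the common step of a gene's FPKM values: 99.9% of 6315 genes with at most 20 estimated fragments came out whole within 0.05. Depth was scaled on genes with a single transcript, 89.8% of which met the common step within 1%. Counting intervals and floors (3 fragments) cover counting error only. Coordinates, exon lengths and sequences are from GENCODE M21 on GRCm38.

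Named were the 8 subunits whatever their values, for each of 4 lists the genes with the highest and lowest log2 fold change and any past the cut-off, and the 2 genes most alike in pattern to each subunit of at least 1 FPKM and to Chrnb1. Other genes, with markers of muscle, cholinergic, habenular, septal, striatal and cortical cells, are named beside a result and were chosen after their values were seen.

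Markers of 6 further cell types were read and 0 of them passed the cut-off; midbrain dopamine markers had 0 genes tested. P2ry12 of microglia was lower in every PND sample (log2 fold change -0.76), while 3 of the 5 microglia markers were positive (median of the list 0.04). In single genes, Clic6 of choroid plexus (0.80) and Prkcd of thalamus (0.70) were higher in every PND sample. All tested markers of choroid plexus (2, median 0.57) and of thalamus (4, median 0.28) were positive. Summed choroid plexus markers were at 2.26 to 2.86 FPKM in PND and 1.15 to 2.08 FPKM in CON. Below the filter, Otx2 of choroid plexus and Lhx9 of thalamus had lower means in PND, and Ttr and Folr1 of choroid plexus had higher means. The part of these cell types in the subunit results was not tested.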

Additional observations from a re-analysis of the deposited data

How the results depend on the processing

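The count of subunits past the cut-off was 1 in 16 of 18 alternatives and stayed 1 when any 1 sample was left out (1 to 1); it was 0 with a pseudocount of 1 and 0 with a filter at a mean of 1 FPKM, which leaves Chrnb1 out. The count over all genes was 241, and 25 with a pseudocount of 1, 59 with a filter at a mean of 1 FPKM and 235 to 388 with 1 sample left out, the highest of these without CON sample 2. Quantile normalization gave 240 genes, 124 of them higher in PND, against 153 of 241. With the replicate block the counts were 1 subunit and 226 genes, and Chrnb1 kept its log2 fold change of 1.70 and stayed past the cut-off. Deviations of samples of the same number had correlations of -0.05, -0.45 and 0.03. Those of unlike number ran from -0.42 to 0.43. Deviations were centered within each group of 3, so these values cannot settle whether samples of the same number were handled together. For Chrnb1, the log2 fold change was 1.62 to 1.84 with 1 sample left out and past the cut-off each time, 1.66 with GC correction, 2.87 by voom on fragments by exon length, 3.28 by voom on recovered whole fragments (chosen after seeing the data) and 0.32 with a pseudocount of 1, and its adjusted p ran from 0.118 to 1.0 over all alternatives. Chrna3 turned to -0.010 with a pseudocount of 1 and to -0.12 with quantile normalization, and ran from -0.39 to 0.30 with 1 sample left out. The range with 1 sample left out was -0.58 to 1.37 for Chrna4 and -0.55 to 0.054 for Chrna5. Chrna7, Chrnb2 and Chrnb3 kept their direction in all alternatives that gave them a value, but not their size: with 1 sample left out Chrna7 ran from -0.39 (without CON sample 1) to -0.07 (without CON sample 2), Chrnb2 from 0.23 (without CON sample 1) to 0.51 (without CON sample 2) and Chrnb3 from 0.06 (without CON sample 3) to 0.85 (without CON sample 2). The unadjusted p fell below 0.05 for Chrna7 without CON sample 1 and for Chrnb2 without CON sample 2, with neither past the cut-off. Except where the construction shows it, the cause of these changes was not tested. Counts of at most 8 fragments a sample limit Chrna3, Chrnb1 and Chrnb4.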
